A study of Mus musculus with 12 samples.

Results

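Rnf128 encodes GRAIL, the gene related to anergy in lymphocytes, an E3 ubiquitin ligase of the endosomal membrane. Its signal was read by 2 of the 45037 probe sets other than controls on the array, 1418318_AT and 1449036_AT. The pairing of these identifiers with Rnf128 was given with the choice of the gene and was not checked against an annotation of the array. The gene was selected on its measured signal in these arrays, with its level in tumors known. Every comparison with the tumors is therefore a description with no test, and only the comparison of the 2 kinds of normal lung was tested. The fit behind that test drew its spread from all 12 arrays, tumors included.

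The samples were 12 pieces of lung, 1 per array, in 3 groups of 4. Non-transgenic lung came from normal FVB mice, an inbred strain. Adjacent normal lung and lung adenocarcinoma came from FVB mice that carried wild-type human cyclin E under the human surfactant protein C promoter, which is active in alveolar type II cells of the lung epithelium, so that both of these groups carried the transgene. All samples were labelled male, all mice were 7 to 11 months of age, and the labels name no drug or other agent. Tumor and adjacent lung were told apart by gross pathology, and the methods call the adjacent lung normal by histopathology. A tumor and a lung that share a number may be from 1 transgenic mouse, but the labels do not state it. The methods speak of independent samples. Biotin-labelled cRNA was hybridized to Affymetrix mouse genome arrays, which read a transcript with a set of short probes, and each value is a log2 signal already normalized by the authors, so that a difference of 1 is a 2-fold change. Both probe sets passed the filter on low signal, above 4.18 (the median of the table) in at least 4 arrays, and did so in all 12 arrays, while 23538 passed in all. Cell type markers and the other genes of the pathway could not be named here, because no table of the array's genes was used. In whole tissue, more cells that express a gene and more RNA per cell cannot be told apart.

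GRAIL belongs to a family of ligases that pair a protease-associated domain inside the endosome with a RING finger in the cytoplasm, on either side of a single membrane span. The RING finger recruits an enzyme that carries ubiquitin, and surface and cytoplasmic proteins brought to the ligase are marked for degradation or for another route through the cell. It was first described in T cells that had become unresponsive to their antigen, a state called anergy, in which it limits activation, and it is also found in epithelia. The deubiquitinases Otub1 and Usp8 are known to act on it.

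The gene lies on the X chromosome between Radx and Tbc1d8b, its nearest protein-coding neighbours in the RefSeq gene table of the assembly GRCm38.p6. RefSeq lists 2 transcripts of it, and the promoter table held an entry for 1 start. The 250 bases before that start, chrX:139610370-139610619 on the plus strand of GRCm38.p6, are shown because both probe sets of the gene read higher in tumors. Capitals mark the only match to a GC box (GGGCGG, either strand).

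Rnf128 promoter: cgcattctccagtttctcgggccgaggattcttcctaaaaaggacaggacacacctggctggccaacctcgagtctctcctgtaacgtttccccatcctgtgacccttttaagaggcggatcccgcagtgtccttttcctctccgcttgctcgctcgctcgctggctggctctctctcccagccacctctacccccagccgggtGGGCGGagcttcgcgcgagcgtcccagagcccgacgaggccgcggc

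This stretch was rich in G and C, at 63.2% against a median of 52.4% over the same 250 bases of 32851 promoter entries. It held 21 CpG pairs, where the median entry held 6, and 83.7% of entries held fewer. The GC box lay 46 to 41 bases before the start, and 32.7% of all entries had a match to it. An E-box (CANNTG) matched 199 to 194 bases before the start, as in 66.2% of entries, and the NFAT core (GGAAA, both strands) matched at 2 places, as it did at least once in 55.6% of entries. No match was found for the AP-1 motif (TGANTCA, in 6.75% of entries), the E2F motif (TTTNNCGC, 4.28%), the EGR motif (GCGNGGGCG, 4.70%), the TCF/LEF core (CTTTGA, 13.8%), the TATA box (TATAAA, 12.4%) or the CCAAT box (CCAAT, 33.8%), all searched on both strands. These matches describe letters and not binding.

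Rnf128 was far higher in the tumors than in either kind of normal lung, and both probe sets showed it in all 4 tumors. With 1418318_AT, the log2 signal was 9.11, 8.54, 9.39 and 9.58 in tumors 1 to 4. The adjacent normal lungs 1 to 4 were at 4.90, 5.96, 4.86 and 6.19. The non-transgenic lungs 1 to 4 were at 7.24, 5.59, 5.38 and 5.21. No tumor overlapped with a lung, the lowest tumor was tumor 2 and the highest lung was non-transgenic lung 1. The second probe set, 1449036_AT, read 8.77, 8.63, 9.45 and 9.82 in tumors 1 to 4. It read 5.09, 5.99, 5.93 and 6.02 in adjacent normal lungs 1 to 4. In non-transgenic lungs 1 to 4 it read 6.84, 5.33, 5.50 and 5.47. The same pair of arrays faced each other across the gap, with tumor 2 lowest among the tumors and non-transgenic lung 1 highest among the lungs.

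**Figure D1:**
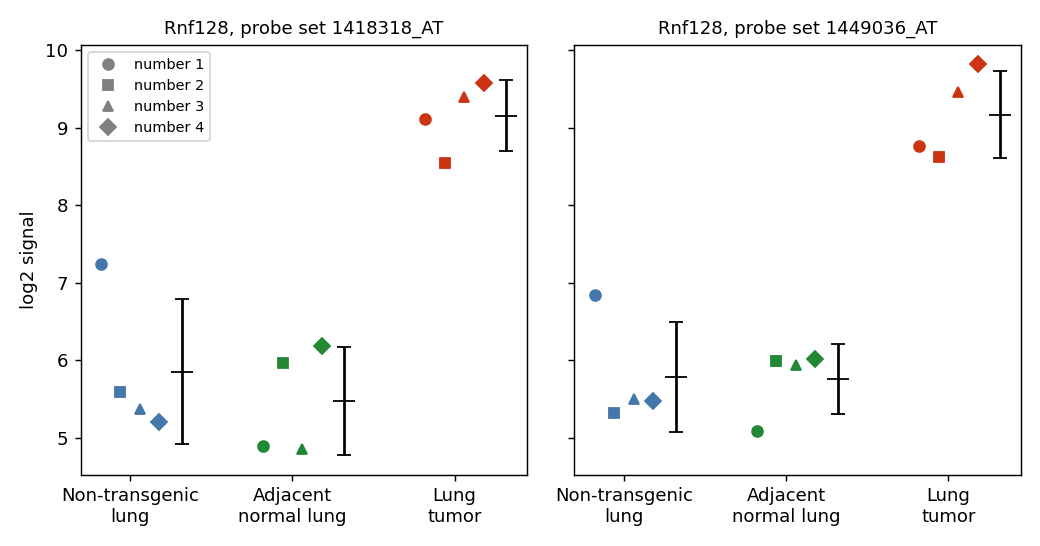
Log2 signal of Rnf128 (vertical axis) with 1418318_AT (left) and 1449036_AT (right) for the 3 groups. Each point is an array, the marker gives the replicate number, and bars give mean and SD (n = 4). All tumors lie at 8.54 or above and all lungs at 7.24 or below.

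With 1418318_AT the tumors averaged 9.15 ± 0.45 (SD, n = 4). Adjacent normal lung averaged 5.48 ± 0.70 (SD, n = 4), and non-transgenic lung averaged 5.85 ± 0.94 (SD, n = 4). Tumors thus exceeded adjacent normal lung by 3.68 log2 units, or 12.8-fold, and non-transgenic lung by 3.30 log2 units, or 9.85-fold. With 1449036_AT the tumors averaged 9.17 ± 0.56 (SD, n = 4), adjacent normal lung averaged 5.76 ± 0.45 (SD, n = 4), and non-transgenic lung averaged 5.79 ± 0.71 (SD, n = 4). Here the tumors were higher by 3.40 log2 units (10.6-fold) than adjacent normal lung and by 3.38 log2 units (10.4-fold) than non-transgenic lung. Both comparisons share the same 4 tumors. The differences were several times the SD of any group, and the table has no detection calls, so whether the lung values lie above background is not known and the folds are uncertain.

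Tumor and adjacent lung were also set side by side by number, although the labels do not state outright that a number is 1 mouse. Since no tumor overlapped with a lung, any pairing gives a rise in every pair, and only the sizes depend on it. In 1418318_AT the tumor exceeded the adjacent lung by 4.22, 2.57, 4.53 and 3.39 log2 units in pairs 1 to 4, which is 18.6-fold, 5.95-fold, 23.0-fold and 10.5-fold. In 1449036_AT the rise was 3.67, 2.63, 3.52 and 3.79 log2 units, or 12.8-fold, 6.20-fold, 11.5-fold and 13.9-fold. Pair 2 showed the smallest rise with both probe sets. The largest was in pair 3 with 1418318_AT and in pair 4 with 1449036_AT, so that the order of the other pairs was not shared.

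By the size of the mean increase over adjacent normal lung, 1418318_AT ranked 6 and 1449036_AT ranked 9 among the 23538 probe sets tested. Over non-transgenic lung they ranked 26 and 22. The median difference of all probe sets tested was 0.07 log2 units in both comparisons. In 1644 probe sets, or 6.98% of those tested, all 4 tumors lay above all 8 lungs, and both Rnf128 probe sets were among them. Since the gene was chosen with its tumor values known, nothing is read from that count.

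The space between the tumors and the lungs was wide for Rnf128. As the gene was chosen with its tumor values known, this width is a description with no test. The lowest tumor exceeded the highest lung by 1.30 log2 units (2.46-fold) in 1418318_AT and by 1.79 log2 units (3.45-fold) in 1449036_AT. Ranked by this gap, 1449036_AT stood at 2 and 1418318_AT at 5, and 16 probe sets in all had a gap of at least 1 log2 unit. The probe set with the widest gap, 1448595_A_AT, had 4.00 log2 units. With non-transgenic lung 1 left out, the gaps were 2.35 and 2.60 log2 units, at ranks 4 and 2. These ranks turned on tumor 2. Without it 5114 probe sets (21.7%) separated the other tumors from all lungs, the gaps of Rnf128 were 1.87 and 1.93 log2 units, and their ranks fell to 112 for 1418318_AT and 99 for 1449036_AT. The ranks by mean increase over adjacent normal lung became 17 and 30, and those over non-transgenic lung 58 and 50.

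**Figure D2:**
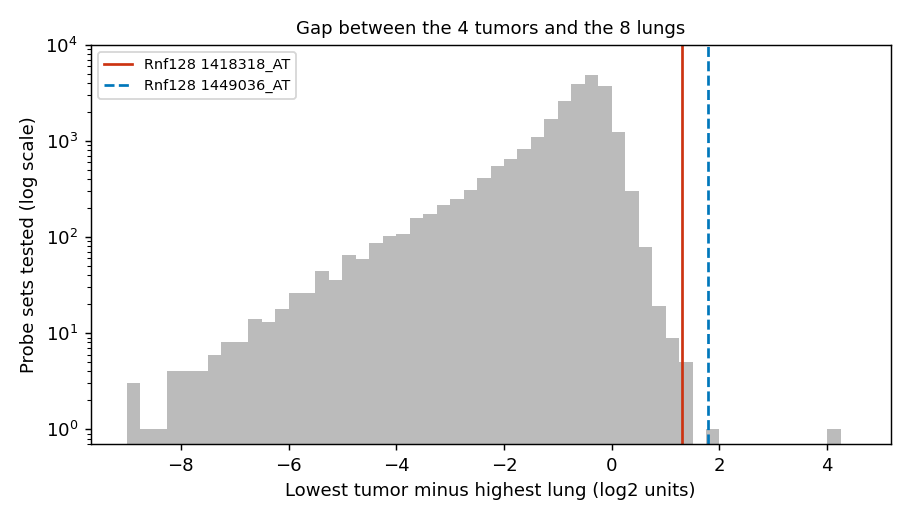
Lowest tumor minus highest lung (horizontal axis, log2 units) for the 23538 probe sets tested, as a count per bin of 0.25 on a logarithmic vertical axis, with probe sets beyond the left end counted in the first bar. The vertical lines mark Rnf128 at 1.30 (1418318_AT) and 1.79 (1449036_AT), near the right end of the distribution.

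Tumor 2 is the array on which Rnf128 differed from most genes that were raised in tumors. For most probe sets raised in the other tumors it lay closer to the lungs. In the 1717 probe sets whose mean in tumors 1, 3 and 4 was at least 2-fold above the mean of the 8 lungs, tumor 2 showed a median of 14.4% of the log2 rise of the other tumors (quartiles -4.66% and 37.5%). For Rnf128 it showed 77.7% of the rise in 1418318_AT and 79.9% in 1449036_AT, more than in 93.5% and 94.1% of those probe sets. On the linear scale the shares were 51.8% and 54.2% for Rnf128 against a median of 6.69%, and 91.7% and 92.4% of the probe sets lay below. The other tumors lay nearer to the median in the same measure. For the 2 Rnf128 probe sets, tumor 1 reached 98.4% and 84.9% of the mean log2 rise of the tumors other than itself. Tumor 3 reached 109.2% and 111.7%, and tumor 4 reached 116.9% and 127.3%. The medians over the probe sets raised in each case were 114.1%, 125.5% and 128.2%. In these 3 cases the tumors compared with include tumor 2, which lay low in most raised probe sets. The gene was selected with these signals known, so the place of tumor 2 is a description with no test.

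**Figure D3:**
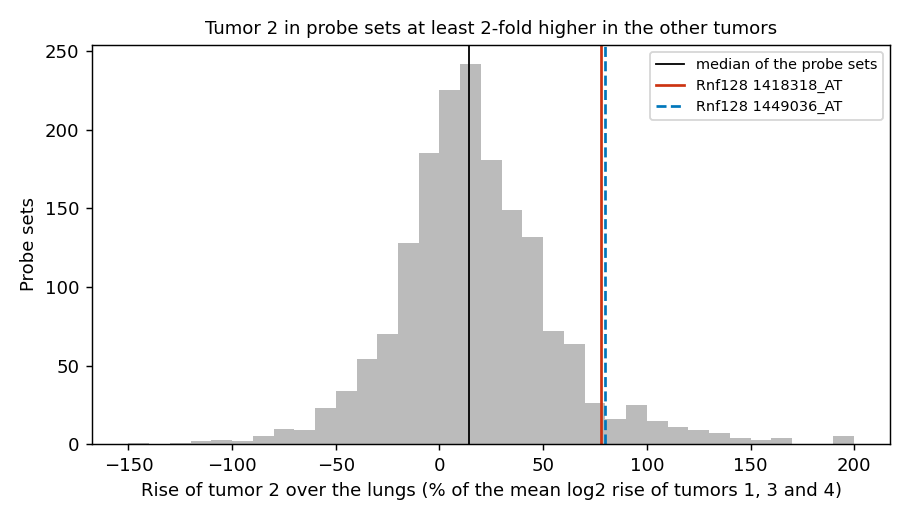
Rise of tumor 2 above the mean of the 8 lungs, as a percentage of the mean log2 rise of tumors 1, 3 and 4 (horizontal axis), in the 1717 probe sets at least 2-fold higher in those tumors, with the number of probe sets per bin on the vertical axis and values beyond the axis counted in the outermost bars. The median is 14.4%, and the lines for Rnf128 lie at 77.7% (1418318_AT) and 79.9% (1449036_AT).

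The 2 kinds of normal lung did not differ in Rnf128 by more than the spread between arrays. Adjacent normal lung was at 5.48 and non-transgenic lung at 5.85 with 1418318_AT, a difference of -0.38 log2 units (95% interval -1.36 to 0.61, limma adjusted p = 1.0). With 1449036_AT the difference was -0.02 log2 units (95% interval -0.83 to 0.78, limma adjusted p = 1.0). Of all 23538 probe sets 0 passed limma's adjusted threshold in this comparison, or 0% of those tested, and 835 had an unadjusted p under 0.05. That is fewer than the share of 0.05 that chance alone would give. The number was 1465 without tumor 2 and 1544 in a fit of only the 8 lungs, both above that share. A two-sided exact permutation test gave p = 0.63 and p = 1.0 for the 2 probe sets, where the smallest p that 4 arrays against 4 allow is 0.029. The interval of 1418318_AT leaves room for any change between -1.36 and 0.61 log2 units, and that of 1449036_AT for any between -0.83 and 0.78. Neither probe set therefore shows the same level in both groups.

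The direction between the lung groups rested on single arrays. Without non-transgenic lung 1, adjacent normal lung was higher by 0.086 log2 units in 1418318_AT and by 0.33 in 1449036_AT, and without adjacent normal lung 1 the difference in 1449036_AT was 0.20. None of these passed limma's adjusted threshold.

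The spread of Rnf128 in normal lung was large for this array. Among non-transgenic lungs its SD was larger than that of 99.4% (1418318_AT) and 98.6% (1449036_AT) of the probe sets tested, where the median SD was 0.19 log2 units. Among adjacent normal lungs it exceeded the SD of 94.6% and 86.4% of probe sets, with a median SD of 0.22. In tumors, where the median SD was 0.31, these shares were 69.9% and 78.7%. Non-transgenic lung 1 carried much of the first of these, at 1.05 log2 units above the next highest lung in 1418318_AT and 0.81 in 1449036_AT. This array exceeded the other 7 lungs by more than 1 log2 unit in 108 probe sets in all, while the other lungs did so in 0 to 17. In adjacent normal lung the 2 probe sets spread differently. With 1418318_AT lungs 1 and 3 were low and lungs 2 and 4 high, whereas with 1449036_AT lung 1 alone was low and lungs 2, 3 and 4 lay within 5.93 to 6.02.

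Both probe sets moved together within groups as well as between them. In 11 of the 12 arrays they lay on the same side of their group mean, and the exception was adjacent normal lung 3, which was 0.62 log2 units below its group in 1418318_AT and 0.17 above it in 1449036_AT. That array lay more than 1 log2 unit below all other lungs in 1145 probe sets, where other lungs did so in 0 to 58. The 11 agreements are not independent of each other. Non-transgenic lung 1 lay 1.39 and 1.05 log2 units above its group mean, and the rest of its group lay below that mean with both probe sets. Once group means were removed, the correlation between the 2 probe sets was 0.84 over the 12 arrays, 0.94 without adjacent normal lung 3 and 0.68 without non-transgenic lung 1. The probe sets read one gene on the same arrays, so this correlation describes agreement of the readings.

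**Figure D4:**
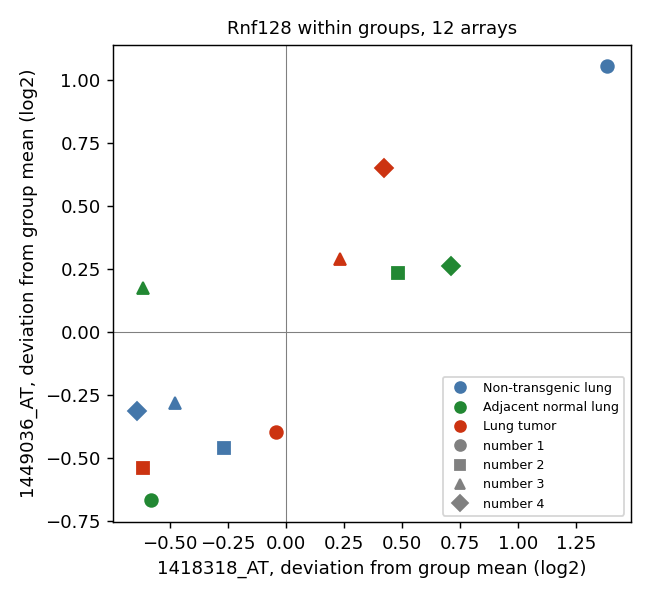
Deviation of each array from its group mean (log2 units) in 1418318_AT (horizontal axis) and 1449036_AT (vertical axis), with colour for the group and marker for the replicate number. Adjacent normal lung 3 is the point at -0.62 and 0.17, and non-transgenic lung 1 is the point at 1.39 and 1.05.

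The probe sets most like Rnf128 were sought by the Pearson correlation with the mean of its 2 probe sets over the 12 arrays, a measure that the tumors dominate. The 2 Rnf128 probe sets had a correlation of 0.98 with each other. For 1418318_AT 1 of the remaining probe sets tested was closer than 1449036_AT, and for 1449036_AT 2 were closer than 1418318_AT. By measures that the tumors dominate less, more were closer: 13 and 38 with group means removed, 104 and 104 with ranks in place of signals, and 157 and 266 over the 8 lungs alone. Over the mean of both, 1451470_S_AT and 1426554_A_AT came first with correlations of 0.98, and their increases in tumors over adjacent normal lung were smaller, at 0.42 and 1.27 log2 units against 3.68 and 3.40 for Rnf128. In all, 40 probe sets reached a correlation of 0.95. This number was 312 without tumor 2, 90 without adjacent normal lung 3, 87 without non-transgenic lung 1 and 25 without tumor 4. The identities changed too. Of the 8 probe sets most like Rnf128, 2 were among the first 8 by Spearman's correlation, where neither of those named above appeared, and 1 without tumor 2. The genes behind these identifiers were not named here.

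Other signals on the arrays also separated the tumors from the lungs. 18S rRNA, a ribosomal RNA, had a 3′ control signal of 6.17 to 7.76 in tumors and 7.97 to 10.2 in the lungs. For the glycolytic enzyme Gapdh the 3′ control was at 11.8 to 12.5 in tumors and 10.9 to 11.4 in the lungs. A larger excess of 3′ over 5′ signal is a sign of less intact RNA. Averaged over beta-actin and Gapdh, this excess was 0.30 to 0.61 in tumors. In non-transgenic lung this was 0.35 to 0.49 and in adjacent normal lung 0.39 to 0.57, so that the ranges overlapped. Tumor 2, the tumor lowest in Rnf128, had the highest excess of all arrays at 0.61. Non-transgenic lung 1, the lung highest in Rnf128, had the lowest excess of the lungs at 0.35. The controls ordered the groups differently. Beta-actin averaged 0.86 in tumors, 0.80 in adjacent normal lung and 0.69 in non-transgenic lung, and Gapdh 0.15, 0.25 and 0.16. The median signal of an array, after the authors' normalization, was 4.10 to 4.13 in tumors and 4.17 to 4.38 in the lungs. The part of RNA preparation in the Rnf128 difference was not tested.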

How the data were processed

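The table deposited by the authors held log2 signals, 1 for each probe set of each array, after background correction and normalization. The methods name Robust Multichip Average in GeneSifter, whereas GCRMA, with no version, is named in the submitters' processing notes, and these treat low signals differently. The deposited log2 values ran from 1.50 to 14.5 over 45101 probe sets, of which 64 were controls. Groups and replicate numbers came from the labels.

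Testing took probe sets above 4.18 in 4 or more arrays and used limma 3.58.1 in R 4.3.3 (lmFit and eBayes, 3 groups in a single fit, no block, Benjamini-Hochberg adjusted p under 0.05 over 23538 probe sets). The fit was also run on simulated, normally distributed values. The changes simulated were larger than those of Rnf128 between the lung groups, so that run cannot tell whether differences of that size would be found. Ranks, gaps, shares of a rise, correlations and base counts were computed in Python 3.11.15 with numpy 2.4.6, pandas 2.3.3 and scipy 1.17.1. Promoter bases came from RefSeq (GRCm38.p6). Arrays carry no depth, and their number limits the precision.

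The 2 members, the gene lists and the tests were chosen with earlier results of these data known. The rule for named genes took Rnf128 in every array, its ligase family, its partners, anergy genes, X chromosome neighbours, cell type markers and the genes most like it, but only Rnf128 and the most similar probe sets could be reported, since no table of the array's genes was used. Deviations from group means of tumor and adjacent lung of the same number correlated by -0.03, 0.10, 0.07 and 0.11 in pairs 1 to 4.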

Additional observations from a re-analysis of the deposited data

Results flagged for a closer look

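By Dixon's criterion 2 of the 6 groups (3 for each probe set) held an array set apart, and about 1 in 20 is expected by chance. Both were in 1449036_AT. Non-transgenic lung 1 had a log2 signal of 6.84 against 5.33 to 5.50 in the rest of its group, and with 1418318_AT it was also the highest of its group at 7.24, short of the criterion. Adjacent normal lung 1 had 5.09 against 5.93 to 6.02 in its group, whereas with 1418318_AT its 4.90 lay next to the 4.86 of lung 3. The causes were not tested.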

How the results depend on the processing

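The rise of Rnf128 in tumors moved by less than 1 SD between arrays, pooled over the groups compared, under every alternative. Only normalization could have moved it by more than that. Leaving out 1 of the 4 arrays of a group, or 1 from each group compared, cannot move a difference of means past this SD. Those removals therefore show only the sizes below. A floor of 2.81 lay below every Rnf128 value. Balanced blocks, or a fit of only the arrays compared, cannot move a difference of group means. Under the floor, the blocks and the fit of fewer arrays the rise was therefore fixed in advance. With single arrays left out it was 3.47 to 3.91 (1418318_AT) and 3.18 to 3.58 (1449036_AT) log2 units over adjacent normal lung, and 3.09 to 3.76 and 3.16 to 3.73 over non-transgenic lung. Between the lung groups the difference was -0.61 to 0.086 (1418318_AT) and -0.18 to 0.33 (1449036_AT) with single arrays left out. It turned positive without non-transgenic lung 1 (0.086 and 0.33), without adjacent normal lung 1 (0.20, 1449036_AT) and without non-transgenic lung 1 and adjacent normal lung 3 together (0.29 and 0.27). That pair of arrays was chosen after the data were seen, as were the other pairs. Rnf128 was not called between the lung groups in any fit run, and its lowest limma adjusted p was 0.84 (1418318_AT, only the 8 arrays compared) and 0.89 (1449036_AT, without tumor 2 and non-transgenic lung 1). Over all probe sets, 5 were called without tumor 2 and adjacent normal lung 3, 2 were called without tumor 2 and non-transgenic lung 1, and 0 in the other alternatives. A block for the replicate number left the differences over adjacent normal lung at 3.68 and 3.40, as it must in this balanced design. With that block, 0 probe sets were called between the lung groups, as without it. Of the 4 tumors, 1 had its closest match, by deviations from group means, in the adjacent lung that shared its number. Probe sets with a correlation of at least 0.95 with Rnf128 numbered 19 with Spearman's correlation and 25 to 312 with single arrays left out, and the cause was not tested. The lists of genes planned for the family, partners, anergy, neighbours and cell types were not run, nor was the methods' analysis of variance over 3 groups, which takes in the tumors. The contrast of the lung groups with its residual variance was run instead.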
